A study of Homo sapiens with 6 samples.

Results

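The noncoding small nucleolar RNA (snoRNA) host genes GAS5, SNHG1, SNHG5, SNHG6, SNHG7, SNHG8, SNHG12, SNHG15, SNHG16 and ZFAS1 were followed in cells depleted of FTO, an enzyme that removes methyl groups from N6-methyladenosine in RNA. These 10 genes were taken by name from the 60483 Ensembl gene IDs of the count files, and each name matched 1 ID. The RNA came from 253J, an established human bladder cancer cell line, as 3 libraries from cells given a control siRNA (replicates 1, 2 and 3) and 3 from cells given siRNA against FTO (siFTO, replicates 4, 5 and 6). The labels name siRNA, whereas the study's methods describe short hairpin RNA against FTO, and no dose or time after transfection is given in the labels. Nothing in the labels says that the replicates were separate cultures, so the p-values rest on a spread between libraries that may be only technical.

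snoRNAs guide the chemical modification of ribosomal RNA and are cut out of the introns of longer host transcripts. In the genes described here the spliced exons that remain carry no long conserved reading frame, and for many of these RNAs the spliced product is known to be cleared by nonsense-mediated decay, which depends on translation. Many snoRNA hosts begin with a 5′ terminal oligopyrimidine (TOP) tract, a C at the first base followed by an unbroken run of C and T, as the messenger RNAs for ribosomal proteins do. TOP messengers are translated when mTORC1 is active and held back by LARP1 when it is not.

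The starts of the host RNAs are shown because the TOP tract is the feature by which the genes were grouped. Each line gives the first 30 bases of a GENCODE 29 transcript on GRCh38, 5′ to 3′, with the opening C and the pyrimidine run that follows it in capitals. The start used by RefSeq was taken where a transcript there began with a C and at least 2 pyrimidines, and otherwise the start of this kind shared by the most transcripts.
GAS5, chr1:173867960-173867989, minus strand: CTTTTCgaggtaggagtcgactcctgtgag
SNHG1, chr11:62855856-62855885, minus strand: CTCatttttctactgctcgtggtaagtggc
SNHG5, chr6:85678704-85678733, minus strand: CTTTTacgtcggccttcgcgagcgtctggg
SNHG7, chr9:136728155-136728184, minus strand: CTCTgcgtgcgccggaggctgccgtggcgg
SNHG8, chr4:118278758-118278787, plus strand: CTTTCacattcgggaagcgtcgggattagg
SNHG12, chr1:28581844-28581873, minus strand: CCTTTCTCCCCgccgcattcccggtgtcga
SNHG16, chr17:76557769-76557798, plus strand: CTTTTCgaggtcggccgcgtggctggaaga
ZFAS1, chr20:49278642-49278671, plus strand: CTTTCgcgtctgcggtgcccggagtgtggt

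Counted as a C followed by at least 4 pyrimidines, a TOP tract stood at the chosen start of 7 of the 10 genes, namely GAS5, SNHG5, SNHG6, SNHG8, SNHG12, SNHG16 and ZFAS1. SNHG6 has 6 pyrimidines after the C, and its letters are not printed. The run stopped at 3 pyrimidines in SNHG7 and at 2 in SNHG1, although 1 of the 25 annotated SNHG1 transcripts had a full tract. No SNHG15 transcript began in this way. The choice of start favours the feature counted. At the RefSeq start itself, which was not the start printed for GAS5, SNHG8 and SNHG16, 3 of 8 hosts with a window (37.5%) had a tract, against 4.07% of all 35116 windows. At least 1 transcript with a tract was annotated for 8 of the 10 genes (80%), against 6.71% of all 56753 genes found in GENCODE 29 and 83.5% of the 79 cytosolic ribosomal protein genes. This share restates how the genes were chosen. By transcript, 23 of 136 (16.9%) began with a tract, against 2.42% of all transcripts and 20.4% of those of ribosomal protein genes. GAS5 and SNHG16 had the same tract, CTTTTC, and SNHG12 had the longest, with 10 pyrimidines after the C. A start in an annotation is not a measured start, and the reads give no start sites here.

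The stretch before the RefSeq start held a second feature, shared by part of the hosts. Of the 8 hosts with a RefSeq start window (GRCh38.p14), 5 carried the letters TATAA on the sense strand within the 45 bases before the start, namely SNHG5, SNHG7, SNHG8, SNHG12 and ZFAS1. The same letters lay there in 4.52% of the 35116 RefSeq windows. The other-strand letters TTATA, which can overlap TATAA, lay there in 2.44% of windows and, among the hosts, in ZFAS1 alone. The 30 bases just before the RefSeq start are shown for the 4 hosts in which this shorter stretch holds the motif, with TATAA in capitals.
SNHG5, chr6:85678734-85678763, minus strand: TATAAggagctactggctgcgcacttcggt
SNHG7, chr9:136728185-136728214, minus strand: TATAAaaggcgcggcgcttcccttctcgtc
SNHG12, chr1:28581874-28581903, minus strand: taTATAAgctcttgctcgcggcttcagcgc
ZFAS1, chr20:49278612-49278641, plus strand: aTATAAgggaggttcaggaagccattcgtt
These are matches of letters, and factor binding was not measured. GAS5, SNHG1 and SNHG16 had no TATAA in the stretch searched. For GAS5 the RefSeq start (chr1:173869045) lies upstream of the start printed above (173867989). The stretch before that printed start was not searched, and the motif was not counted for the other gene lists.

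The libraries held 10991789 to 19891269 counted reads in the controls and 13162731 to 15709975 in siFTO, of which 8840 to 16740 per library fell on the 10 host genes. FTO itself was measured at 31.8, 21.4 and 31.2 CPM (reads of the gene scaled to 1000000 reads of a TMM-scaled library) in the controls and at 20.2, 20.7 and 15.7 in siFTO. Its log2 fold change was -0.57 (SE 0.16, adjusted p = 0.0209 by edgeR's quasi-likelihood test with Benjamini-Hochberg adjustment over all 14965 genes tested). Control replicate 2 lay within 1 CPM of the highest siFTO library for FTO, and the call was lost without control 1 (adjusted p = 0.107) or control 3 (0.113). The epithelial markers EPCAM, CDH1, KRT8, KRT18 and KRT19 were present in every library, while the urothelial markers UPK1A, UPK2, UPK3A and GATA3 and the basal keratin KRT5 stayed below 1 CPM in every library, KRT7 stayed below 2 CPM and UPK1B had no count. PPARG stood at 55.1 to 73.3 CPM and KRT13 at 7.59 to 12.8 CPM, both present in every library. siFTO replicates 4 and 5 stood apart from the other libraries. The 11 fibroblast markers summed to 1148 and 1350 CPM there, led by VIM, and to 15.4 to 22.6 CPM elsewhere, where 5 to 7 of them, LUM and DCN included, had no count. COL1A1, COL1A2, COL6A3 and FAP were also higher there than in every other library, whereas LUM and DCN reached at most 1.48 CPM. COL3A1, THY1 and PDGFRA stayed at or below 0.148 CPM in every library. PDGFRB, at 7.23 and 6.94 CPM there, lay within the control range of 4.39 to 7.46 CPM. The 13 leukocyte markers summed to 84.7 and 97.3 CPM in these libraries and to 8.45 to 15.7 CPM in the others. CD74, at 63.7 and 77.1 CPM, made up most of the sums in siFTO 4 and 5, where CSF1R stood at 7.97 and 7.83 CPM. CD14, at 3.34 to 5.62 CPM, and LAPTM5, at 4.07 to 8.13 CPM, had reads in every library. LAPTM5 was called higher in siFTO (edgeR adjusted p = 0.0173). CD68, LYZ, NKG7, TYROBP and ITGAM stayed below 1 CPM in every library. CD3D, CD3E and MS4A1 had no count in any library, and PTPRC had at most 0.0738 CPM in any library. The count of host genes called is therefore also given without siFTO 4 and 5, and so are the log2 fold changes of the hosts called.

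GAS5, ZFAS1, SNHG8 and SNHG6 were lower in siFTO, with 56.6% of the control level left for GAS5, and none of the 10 host genes was higher. All 10 passed the filter on low counts, and 4 of 10 (40.0%) were called lower at an adjusted p under 0.05, against 17.9% of all genes tested. Genes called higher made up 19.5% of all genes, and calls in both directions 37.4%. The log2 fold change was below 0 for 9 of the 10 genes, and its median was -0.27, against 0.01 over all genes. In 7 of the 10 every siFTO library was below every control, against 25.6% of all genes, and in none was every siFTO library above (25.8% of all genes, and 51.4% in both directions). Without siFTO 4 and 5, siFTO 6 alone against the controls gave the same 4 genes lower and none higher, against 5.89% lower and 6.17% higher of 15713 genes. SNHG12, the host above 0 with all libraries, was then at -0.012. The lone siFTO library was there assumed to vary as the controls did. In a bulk sample, fewer cells of one kind and less RNA in each cell cannot be told apart.

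**Figure D1:**
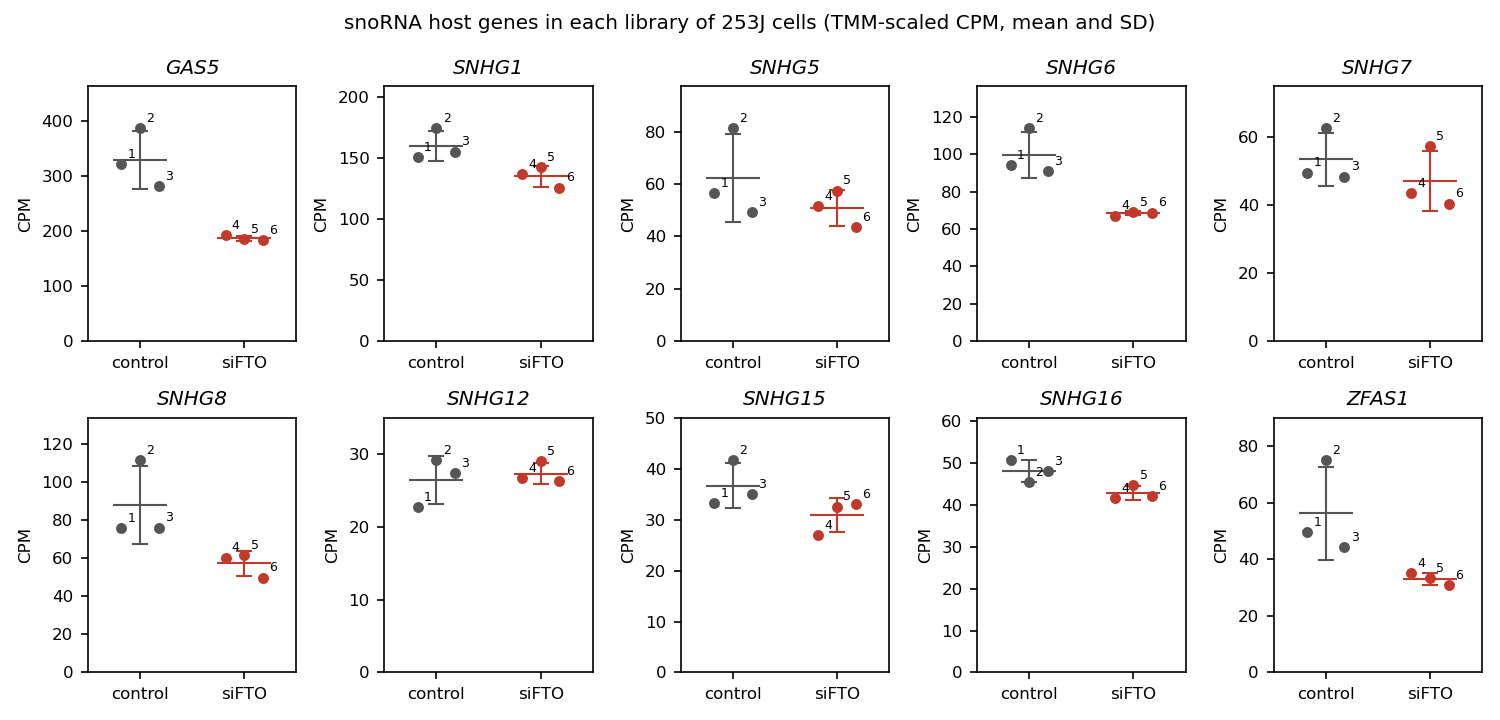
TMM-scaled CPM of each host gene on linear axes from 0, with a point for each library marked by its replicate number, a long line at the group mean and bars of 1 SD (n = 3). GAS5 ran from 282 to 386 CPM in the controls and from 183 to 192 CPM in siFTO, while the SNHG12 groups overlapped.

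GAS5 (ENSG00000234741.6, chr1:173863900-173868882, minus strand) was first found as a transcript that builds up in growth-arrested cells and is the most abundant host of the set in reads. It was measured at 321, 386 and 282 CPM in control replicates 1, 2 and 3 and at 192, 184 and 183 CPM in siFTO replicates 4, 5 and 6. The groups did not overlap, and the siFTO libraries lay much closer to each other (186.6 ± 4.68, SD, n = 3) than the controls did (329.6 ± 52.6, n = 3). The log2 fold change was -0.82 (SE 0.11, edgeR adjusted p = 0.00101). Over the alternative scalings, filters and tools it ran from -0.85 to -0.70.

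ZFAS1 (ENSG00000177410.11, chr20:49278178-49295738, plus strand), which hosts SNORD12, SNORD12B and SNORD12C, was named for its place antisense to the start of ZNFX1. It was measured at 49.6, 75.2 and 44.4 CPM in the controls and at 35.1, 33.5 and 30.8 CPM in siFTO. Every siFTO library was below every control, and control 2 was far above the other controls. The log2 fold change was -0.77 (SE 0.17, edgeR adjusted p = 0.00747). With a correction for the length and GC content of transcripts it was -0.42 and still called.

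SNHG8 (ENSG00000269893.5, chr4:118278709-118279823, plus strand), the host of SNORA24, was measured at 75.7, 111 and 76.0 CPM in the controls and at 60.2, 61.6 and 49.8 CPM in siFTO. The groups did not overlap, with control 2 again the highest library. The log2 fold change was -0.62 (SE 0.15, edgeR adjusted p = 0.0113). The call was lost with the length and GC correction, where the log2 fold change was -0.28 (adjusted p = 0.0833).

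SNHG6 (ENSG00000245910.7), the host of SNORD87 on chromosome 8, was measured at 94.2, 114 and 91.0 CPM in the controls and at 67.1, 69.1 and 68.8 CPM in siFTO. The siFTO libraries spanned about 2 CPM and lay below all controls. The log2 fold change was -0.54 (SE 0.10, edgeR adjusted p = 0.00288). It was -0.25 (adjusted p = 0.0248) with the length and GC correction.

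SNHG1, the host of SNORD22 and of several further C/D box snoRNAs, was measured at 151, 174 and 156 CPM in the controls and at 137, 143 and 126 CPM in siFTO. The groups did not overlap, yet the test missed the threshold, with a log2 fold change of -0.25 (SE 0.09, edgeR adjusted p = 0.0540). Upper-quartile scaling and DESeq2 each put it past the threshold (adjusted p = 0.0352 and 0.0431), as did the length and GC correction (adjusted p = 0.0453).

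SNHG15 and SNHG16 also had every siFTO library below every control without passing the test. SNHG15, which hosts SNORA9, was measured at 33.3, 41.7 and 35.1 CPM in the controls and at 27.0, 32.6 and 33.1 CPM in siFTO (log2 fold change -0.25, SE 0.12, edgeR adjusted p = 0.123). SNHG16, which hosts SNORD1A, SNORD1B and SNORD1C, was measured at 50.7, 45.4 and 48.0 CPM in the controls and at 41.5, 44.7 and 42.1 CPM in siFTO (log2 fold change -0.17, SE 0.09, edgeR adjusted p = 0.165). The gap between the groups was under 1 CPM for SNHG16 and about 0.2 CPM for SNHG15, so these orders rest on small differences. SNHG16 passed with the length and GC correction, with a log2 fold change of -0.24 (adjusted p = 0.0416). SNHG16 was also the only host in which control 2 was not the highest control.

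In SNHG5, SNHG7 and SNHG12 the groups overlapped. SNHG5, the host of SNORD50B, was measured at 56.6, 81.2 and 49.2 CPM in the controls and at 51.4, 57.4 and 43.6 CPM in siFTO (log2 fold change -0.29, SE 0.17, edgeR adjusted p = 0.204). SNHG7, the host of SNORA17A and SNORA17B, was measured at 49.6, 62.6 and 48.4 CPM in the controls and at 43.7, 57.3 and 40.5 CPM in siFTO (log2 fold change -0.18, SE 0.15, edgeR adjusted p = 0.345). Without control 2 the log2 fold change was -0.05 for SNHG5 and -0.05 for SNHG7, and with the length and GC correction it was -0.03 for SNHG5 and 0.12 for SNHG7. In both, siFTO 5 was the highest siFTO library and exceeded 2 of the 3 controls. SNHG12, the host of SNORD99, SNORA44, SNORA61 and SNORA16A, was measured at 22.7, 29.2 and 27.4 CPM in the controls and at 26.7, 29.04 and 26.3 CPM in siFTO. Its log2 fold change was 0.04 (SE 0.11, edgeR adjusted p = 0.782), the only value above 0 in the set. TOP tracts stood at the chosen start both in the 4 genes called lower and in SNHG5, SNHG12 and SNHG16, which did not pass, and the longest was that of SNHG12. The choice of start favours such a tract. At the RefSeq start only SNHG5, SNHG12 and ZFAS1 had one, and SNHG6 and SNHG15 had no window there.

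**Figure D2:**
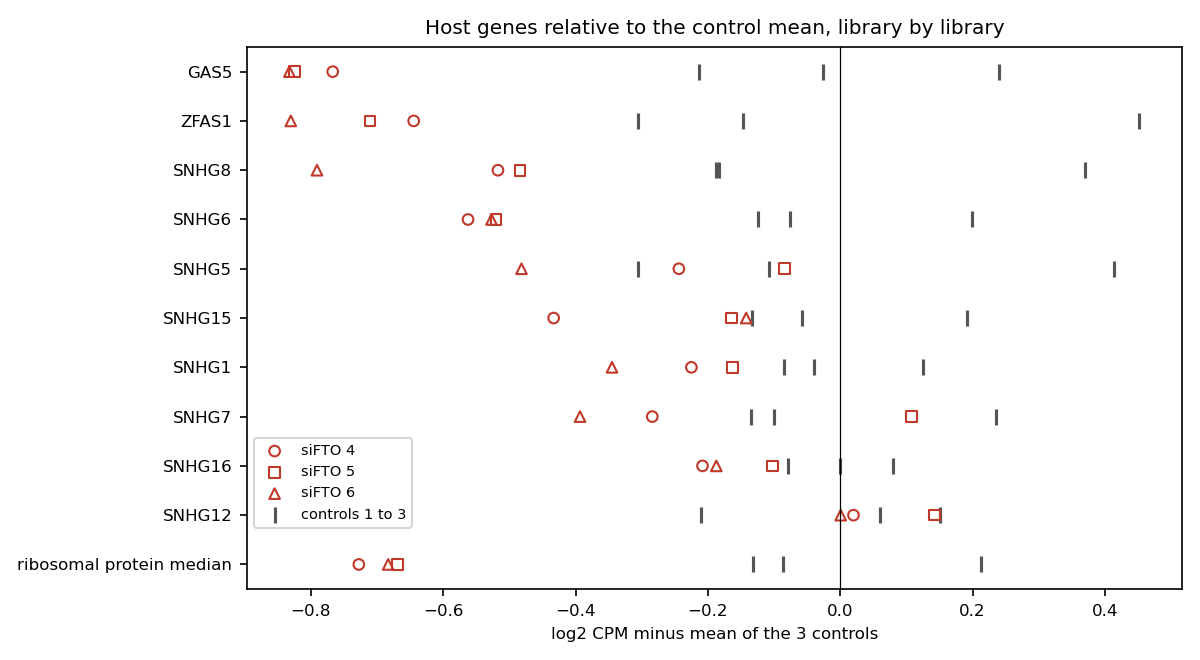
Each host gene in each library as log2 CPM minus the mean of the 3 controls, with siFTO replicates as open symbols and controls as ticks, and the median of the 79 ribosomal protein genes on the last line. The siFTO values of GAS5 lie at -0.77, -0.83 and -0.83, near the ribosomal protein median of -0.73, -0.67 and -0.68.

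The spread among the controls had a common part. Control 2 was the highest control for 9 of the 10 hosts, by 0.24 for GAS5, 0.45 for ZFAS1 and 0.37 for SNHG8 above the control mean on the log2 scale. The ribosomal protein median stood 0.21 above the control mean in the same library. With control 2 left out, or any other single library left out, the same 4 hosts were called lower. Lower calls then made up 9.96% (without control 1) to 18% (without siFTO 6) of all genes, and 10.1% without control 2. Without control 2 the log2 fold change of ZFAS1 was -0.50 (adjusted p = 0.0176) and that of SNHG8 -0.41 (adjusted p = 0.0472). Over the other single libraries left out the adjusted p of these 4 genes was at most 0.0426.

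Summed over the 10 genes, host reads came to 884, 1034 and 834 CPM of the library total in the controls and 711, 730 and 672 in siFTO. Every siFTO library was below every control on this scale, which uses no TMM factor. With library totals alone as the scaling, the log2 fold change of the median gene moved up by 0.12. The host median was then -0.15, and the same 4 hosts were called lower, against 11.9% of all genes.

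**Figure D3:**
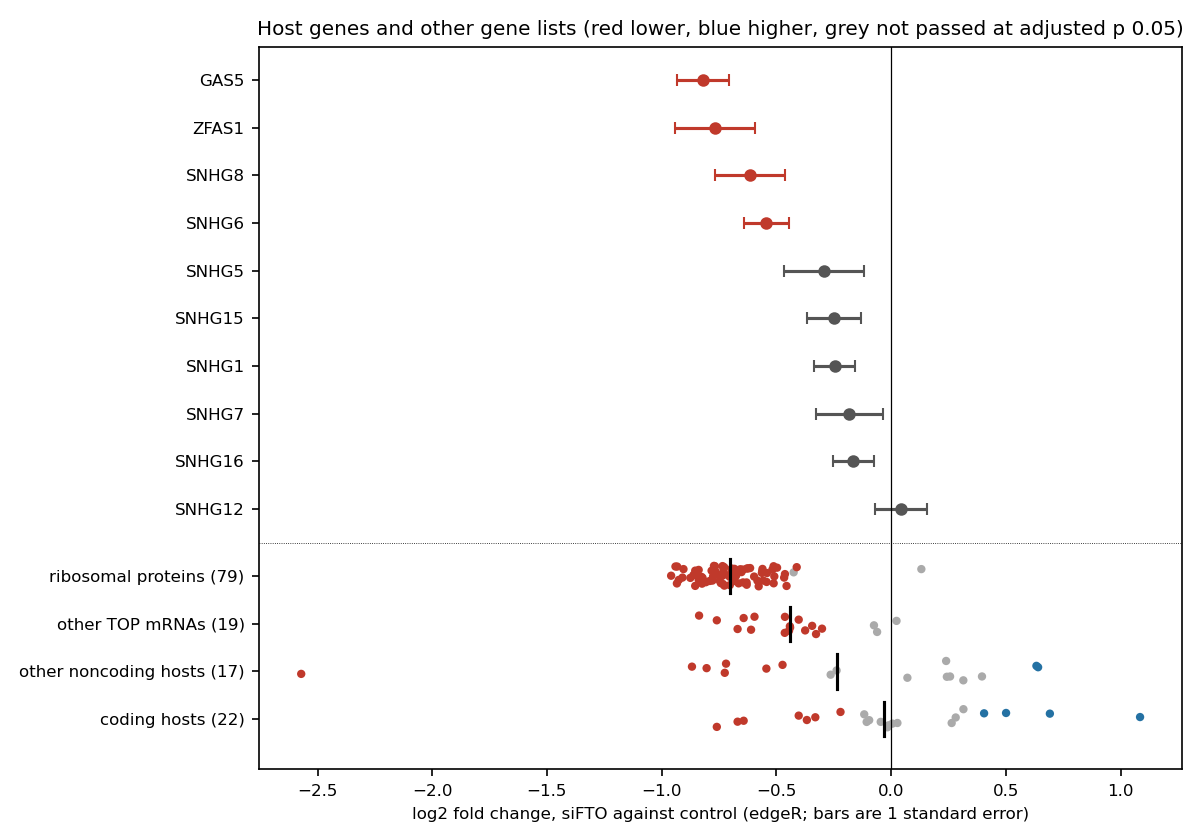
Log2 fold change (siFTO against control) of each host gene with bars of 1 SE, above the single genes of 4 other lists, whose medians are drawn as vertical lines. Red marks lower calls, blue higher calls and grey genes that did not pass. GAS5 at -0.82 and ZFAS1 at -0.77 lie below the ribosomal protein median of -0.70, and SNHG12 at 0.04 lies near 0. All hosts lie within the ribosomal protein range, which RPS10 extends to 0.13.

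Cytosolic ribosomal protein genes, the best known TOP genes, were lower in nearly every member. Of the 79 tested, 77 (97.5%) were called lower and none higher, against 17.9% and 19.5% of all genes. The median log2 fold change was -0.70, with a range from -0.96 for RPL13A to 0.13 for RPS10. RPS10 and RPL36A, at 17 CPM or less in every group mean, were the members not called. Only 18 of the ribosomal protein genes had a lower log2 fold change than GAS5, and 25 had a lower one than ZFAS1. For SNHG8 58 of them were lower, and for SNHG6 66. For each of the other 6 hosts 78 of the 79 were lower, so only RPS10 ranked above them. Among all genes tested GAS5 stood at percentile 4.60, ZFAS1 at 5.69, SNHG8 at 9.64 and SNHG6 at 12.3, and SNHG12 stood at 53.3.

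Other TOP messengers were a further list of 20 genes, apart from the list of ribosomal protein genes, of which 19 were tested. Of these 16 were lower and none higher, against 17.9% and 19.5% of all genes. The median log2 fold change was -0.44. IMPDH2, an enzyme of guanine nucleotide synthesis, was measured at 731, 844 and 716 CPM in the controls and at 421, 447 and 414 CPM in siFTO (log2 fold change -0.84, SE 0.09, edgeR adjusted p = 0.000432). TPT1, which encodes the translationally controlled tumor protein and is itself a snoRNA host, had a log2 fold change of -0.76 (SE 0.11, edgeR adjusted p = 0.00133). NPM1, EIF3L and IPO5 did not pass the test. The hosts thus had a smaller share of lower calls than either TOP list, and this difference between lists was not tested.

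As a share of the reads of the 10 hosts, GAS5 took 35.5, 34.4 and 32.9% in the controls and 28.2, 25.9 and 28.5% in siFTO. Its share was lower in every siFTO library, and that of ZFAS1 also did not overlap (5.49, 6.71 and 5.19% against 5.15, 4.70 and 4.79%). The shares of SNHG1, SNHG7, SNHG12 and SNHG16 were higher in every siFTO library, with SNHG12 at 2.51, 2.60 and 3.20% in the controls and 3.91, 4.07 and 4.08% in siFTO. The shares of SNHG5, SNHG6, SNHG8 and SNHG15 overlapped between the groups. Shares of one total sum to a whole, so they are not independent of each other, and 51.4% of all genes had groups that did not overlap in CPM.

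Ratios of reads within a library need no scaling between libraries. The ratio of GAS5 to SNHG1 was 2.13, 2.21 and 1.81 in the controls and 1.40, 1.29 and 1.46 in siFTO. The ratio of GAS5 to SNHG12 was 14.1, 13.2 and 10.3 in the controls and 7.20, 6.35 and 6.97 in siFTO. Both were lower in every siFTO library, with an exact two-sided permutation p of 0.1, the smallest that 3 libraries against 3 allow (0.12 after Benjamini-Hochberg adjustment over 12 ratios). Of the ratios of GAS5 to each other host, 7 of 9 did not overlap and were lower in siFTO, a share near that across all genes, where 79.2% of such ratios of GAS5 were lower without overlap. The 2 that overlapped were the ratio to SNHG8 and the ratio to ZFAS1. GAS5 to ZFAS1 was 6.47, 5.13 and 6.34 in the controls and 5.47, 5.50 and 5.95 in siFTO (log2 difference -0.08, exact permutation p = 0.6).

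Levels can be compared between hosts only per length. Per kilobase of all annotated exons, the control levels were highest for SNHG8 (95.0 ± 22.3 CPM per kb, SD, n = 3), GAS5 (90.8 ± 14.5) and SNHG6 (79.96 ± 9.95), whose spreads overlapped. SNHG1 followed at 42.7 ± 3.34, apart from both its neighbours in the order. ZFAS1 (25.2 ± 7.35) and SNHG5 (22.2 ± 5.96) could not be separated from each other. SNHG7 (12.3 ± 1.81), SNHG15 (10.1 ± 1.22) and SNHG16 (8.96 ± 0.494) each overlapped with the next, and SNHG12 was lowest at 6.20 ± 0.788. In siFTO the leading levels were 62.0 ± 7.0 for SNHG8, 54.8 ± 0.860 for SNHG6 and 51.4 ± 1.29 CPM per kb for GAS5. The order depends on the length used. Per kilobase of the longest transcript GAS5 led in the controls at 194 CPM per kb, with SNHG6 at 154 and SNHG8 at 131, and in siFTO GAS5 stood at 109.9 and SNHG6 at 105.

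Several hosts lie close to or over a coding gene on the opposite strand, and the neighbours did not all move with them. ZNFX1, which encodes a zinc finger helicase and starts 248 bases from ZFAS1 on the opposite strand, was measured at 49.7, 35.2 and 46.1 CPM in the controls and at 90.9, 92.5 and 82.6 CPM in siFTO. It was higher in every siFTO library (log2 fold change 1.02, SE 0.12, edgeR adjusted p = 0.000685), opposite in direction to ZFAS1. The ratio of ZFAS1 to ZNFX1 reads was 0.998, 2.14 and 0.964 in the controls and 0.386, 0.362 and 0.373 in siFTO, a log2 difference of -1.77 (exact permutation p = 0.1). Their annotations share 249 bases. The strand setting of the counting is not given in the sources used here, so reads in the shared stretch cannot be assigned to one of them.

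SLC3A2, the heavy chain of several amino acid transporters, starts 188 bases from SNHG1 on the opposite strand with no overlap. It was measured at 396, 482 and 413 CPM in the controls and at 270.0, 322 and 209 CPM in siFTO (log2 fold change -0.69, SE 0.14, edgeR adjusted p = 0.00544). SLC3A2 fell by more than SNHG1, and the ratio of SNHG1 to SLC3A2 reads was 0.381, 0.362 and 0.377 in the controls and 0.507, 0.443 and 0.601 in siFTO (exact permutation p = 0.1). Without control 2 the adjusted p of SLC3A2 was 0.0545, and without siFTO 4 and 5 its log2 fold change was -1.04 (adjusted p = 0.00255). TRNAU1AP, a factor of selenocysteine incorporation whose annotation shares 8 bases with SNHG12, was measured at 47.0, 60.3 and 48.6 CPM in the controls and at 35.8, 35.3 and 33.4 CPM in siFTO (log2 fold change -0.58, SE 0.11, edgeR adjusted p = 0.00366). SNHG12 itself overlapped between the groups.

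ZBTB37 shares 801 bases with GAS5 on the opposite strand and was measured at 11.5, 8.98 and 10.0 CPM in the controls and at 11.5, 11.4 and 10.7 CPM in siFTO. Its groups overlapped (log2 fold change 0.15, SE 0.14, edgeR adjusted p = 0.433), and the ratio of GAS5 to ZBTB37 was 27.8, 43.0 and 28.1 in the controls and 16.7, 16.1 and 17.1 in siFTO, without overlap of the groups (exact permutation p = 0.1). GAS5-AS1, which shares 42 bases with GAS5, had 2 to 18 reads per library and did not pass (adjusted p = 0.0848). SYNCRIP beside SNHG5, MCMDC2 over SNHG6 and DIPK1B over SNHG7 did not pass either, with log2 fold changes of 0.12, -0.31 and -0.37. The coding genes nearest to SNHG8, SNHG15 and SNHG16 (PRSS12, MYO1G and CYGB) had at most 14 reads in any library and were not tested.

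**Figure D4:**
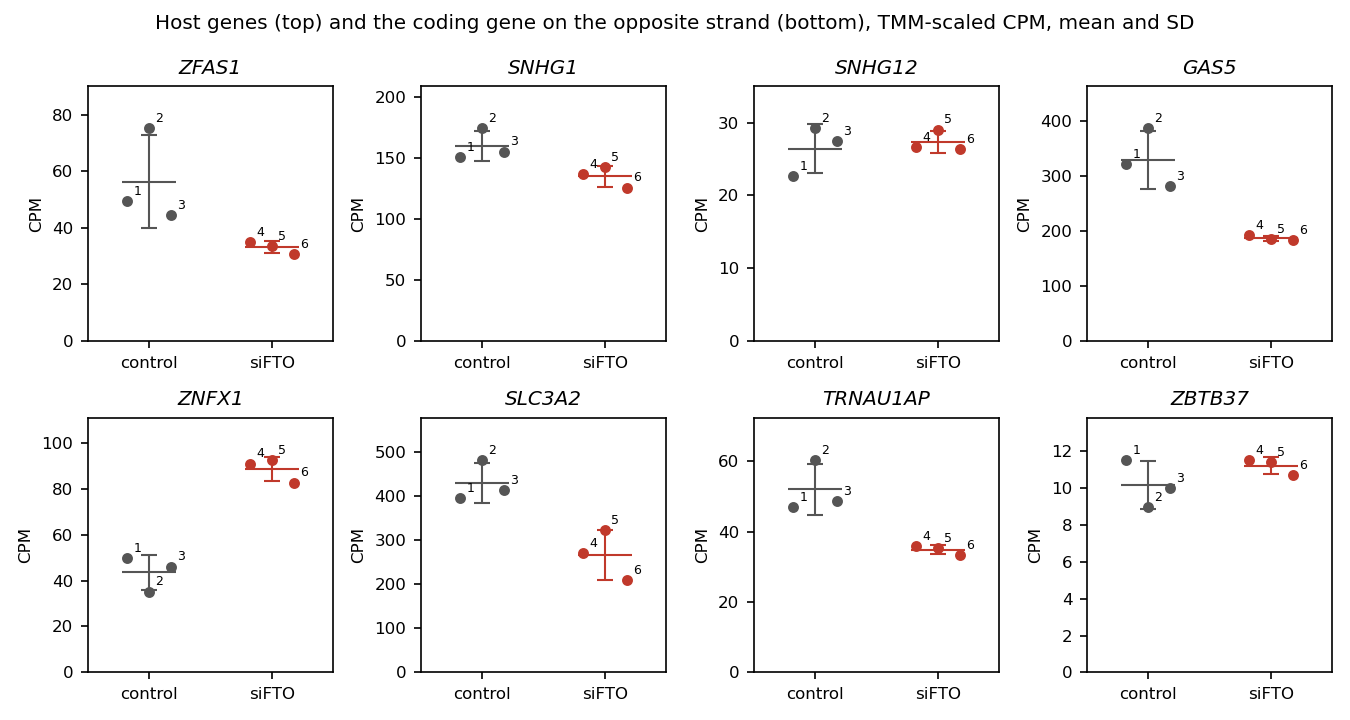
TMM-scaled CPM, on linear axes from 0, of ZFAS1, SNHG1, SNHG12 and GAS5 above a coding gene beside or over each on the opposite strand, with a point for each library, the group mean and bars of 1 SD (n = 3). ZNFX1 lies at 35.2 to 49.7 CPM in the controls and at 82.6 to 92.5 CPM in siFTO, opposite in direction to ZFAS1, and ZBTB37 overlaps between the groups.

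The snoRNAs themselves could not be followed. Of 26 snoRNA gene IDs annotated inside 9 of the hosts on the same strand, 23 had no read in any library. None was matched inside GAS5, although it is a snoRNA host gene, so its snoRNAs are missing from these 26. SNORD99 in SNHG12 had 22, 24 and 40 reads in the controls and 25, 35 and 22 in siFTO. SNORD12B in ZFAS1 had 3, 1 and 4 reads in the controls and 1, 2 and 0 in siFTO, and SNORD1B in SNHG16 had 3 reads in all. How reads on a snoRNA inside a host were assigned is not known.

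Other noncoding snoRNA hosts were described from a list of 19, of which 17 passed the filter. Of these 7 were lower and 2 higher, against 17.9% and 19.5% of all genes. Of the 10 hosts followed here, 4 were lower. The median log2 fold change of this list was -0.24, against -0.27 for the 10 hosts. SNHG32 was measured at 127, 145 and 93.5 CPM in the controls and at 66.4, 69.7 and 63.8 CPM in siFTO (log2 fold change -0.87, SE 0.14, edgeR adjusted p = 0.00178). SNHG29, among the most read genes of this list, fell from 405, 462 and 372 CPM to 262, 269 and 218 CPM, and SNHG3 from 127, 128 and 124 CPM to 92.7, 91.3 and 75.4 CPM. The groups did not overlap in any of these. SNHG22 had the lowest log2 fold change of the list at -2.57 (edgeR adjusted p = 0.00816), on levels of 0.837 to 1.24 CPM in the controls and 0 to 0.373 CPM in siFTO.

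The hosts called higher on this list were SNHG18, at 5.12, 5.89 and 5.79 CPM in the controls and 9.27, 9.64 and 7.36 CPM in siFTO (log2 fold change 0.64, edgeR adjusted p = 0.0141), and SNHG4 (0.63, adjusted p = 0.0305). Both stayed below 11 CPM. DANCR, a host at 71.2 to 93.4 CPM, did not pass the test (log2 fold change 0.07, adjusted p = 0.625).

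Coding genes that carry snoRNAs in their introns were mixed. Of 22 tested, 4 were higher and 7 lower, against 19.5% and 17.9% of all genes. The median log2 fold change was -0.03. The genes that fell included TPT1, EEF1B2, RACK1 and EEF2, which stand on the TOP list too. HSPA8, a heat shock chaperone, was measured at 2021, 2003 and 2392 CPM in the controls and at 4467, 4161 and 4985 CPM in siFTO (log2 fold change 1.09, SE 0.10, edgeR adjusted p = 0.00019). EIF5, a translation initiation factor, also rose (0.69, SE 0.10, edgeR adjusted p = 0.00118). NCL, a nucleolar protein, did not pass (log2 fold change 0.03, adjusted p = 0.830).

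Of 17 tested genes for proteins that bind snoRNAs into particles or assemble them, 3 were lower and 2 higher, with a median log2 fold change of -0.12. Over all genes 17.9% were lower and 19.5% higher. FBL (fibrillarin), the methyltransferase of the C/D box particle, fell from 705, 899 and 779 CPM to 489, 502 and 566 CPM (log2 fold change -0.61, SE 0.11, edgeR adjusted p = 0.00231). The assembly factor PIH1D1 fell as well (-0.65, adjusted p = 0.00179). SHQ1, an H/ACA assembly factor, rose (0.44, adjusted p = 0.0101), as did NOLC1 (0.37, adjusted p = 0.0213). DKC1, the pseudouridine synthase of the H/ACA particle, did not pass (log2 fold change -0.02, adjusted p = 0.885).

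Factors of nonsense-mediated decay, the route that clears GAS5 and several other spliced host RNAs, were mostly higher. Of 10 tested, 6 were higher and 2 lower, against 19.5% and 17.9% of all genes. The median log2 fold change was 0.32, and a link to the hosts was not tested. SMG1, the kinase of UPF1, was measured at 51.4, 42.9 and 55.0 CPM in the controls and at 85.1, 81.9 and 79.7 CPM in siFTO (log2 fold change 0.72, SE 0.10, edgeR adjusted p = 0.00114). SMG8, SMG6 and UPF2 were among the others that rose, while SMG9 (-0.60) and UPF3A (-0.24) fell. UPF1, the central helicase of the route, had a log2 fold change of 0.12 and did not pass (adjusted p = 0.319). The RNA level of a factor is not its activity, and decay was not measured.

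Of 13 genes tested that regulate TOP messengers, 4 were higher and 1 lower, against 19.5% and 17.9% of all genes. The median log2 fold change was 0.22. EIF4EBP1, an inhibitor of cap-dependent translation that mTORC1 switches off, was measured at 318, 432 and 298 CPM in the controls and at 129, 131 and 121 CPM in siFTO (log2 fold change -1.46, SE 0.13, edgeR adjusted p = 0.000189). LARP4 (0.73), MTOR (0.48) and EIF4EBP2 (0.41) rose. LARP1, which binds the TOP tract, had a log2 fold change of 0.08 and did not pass (adjusted p = 0.559). TSC1, TSC2, RPTOR and RHEB did not pass either.

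The genes closest to the mean profile of the hosts over the 6 libraries, among those with a mean log2 CPM of at least 3, were ISY1, TIMM29, PSMB3, RILP and YBEY. Their root mean square distance from that profile was 0.0178 to 0.0330 on the log2 scale. The likeness is over 6 libraries in 2 groups and says nothing of a shared function.

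**Figure D5:**
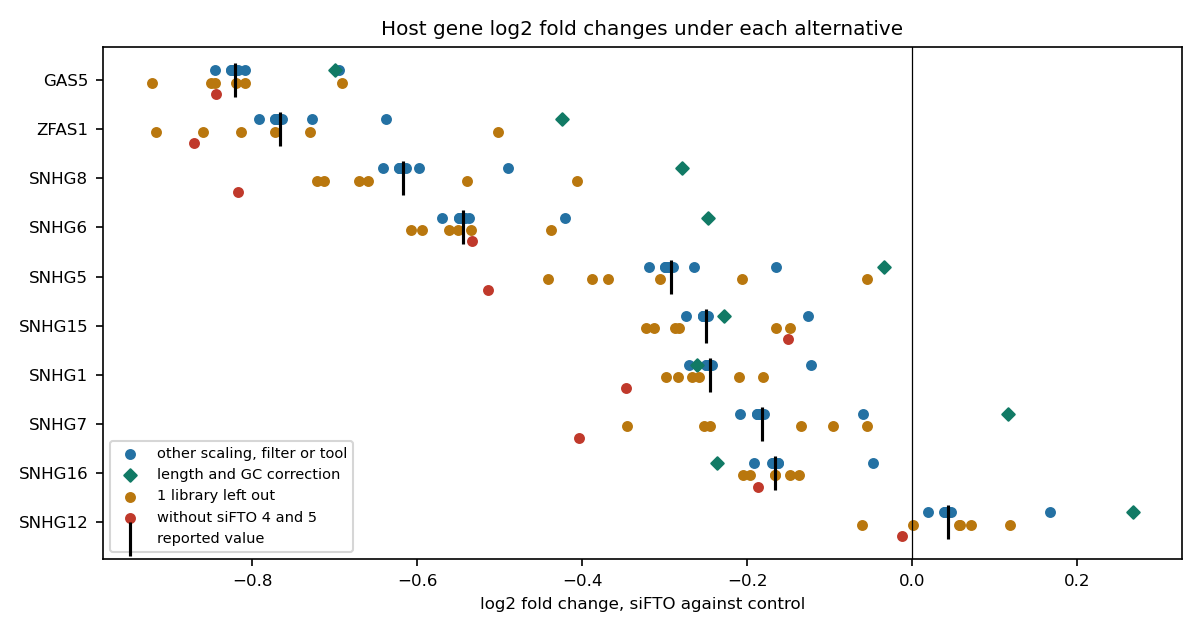
Log2 fold change (siFTO against control) of each host gene as reported (black line), under other scalings, filters and tools, with a length and GC correction, with 1 library left out in turn, and without siFTO replicates 4 and 5. GAS5 stays between -0.92 and -0.69, while SNHG7 and SNHG12 reach values on both sides of 0.

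The length and GC correction moved SNHG5, SNHG6, SNHG7, SNHG8, SNHG12 and ZFAS1 further than any other alternative run, as the plot of alternatives shows. With it 5 hosts were called lower, namely GAS5, SNHG1, SNHG6, SNHG16 and ZFAS1, and SNHG8 was lost. Over all genes 15.7% were then called lower and 18% higher. GAS5 was -0.70 (adjusted p = 0.00111), and SNHG12 was 0.27 (adjusted p = 0.0518). Without siFTO 4 and 5 the log2 fold changes were -0.84 for GAS5 (adjusted p = 0.0120), -0.87 for ZFAS1 (0.0351), -0.82 for SNHG8 (0.0250) and -0.53 for SNHG6 (0.0477). With all libraries they were -0.82 for GAS5, -0.77 for ZFAS1, -0.62 for SNHG8 and -0.54 for SNHG6. The values without siFTO 4 and 5 rest on siFTO 6 alone, in which the fibroblast markers summed to 22.6 CPM. A cause was not tested.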

How the data were processed

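RNA-seq libraries of 253J cells were compared as 3 control against 3 siFTO samples, grouped by their labels. The authors deposited raw read counts per gene, 1 file for each sample. According to the submitters' processing notes, TopHat2 2.0.11 and HTSeq were used, with hg19 and GRCh37 as builds. The annotation release is not given in the sources used here, nor is the strand setting. Counts were filtered (filterByExpr, minimum count 10, minimum total 15), scaled by TMM and tested with edgeR 4.0.16 in R 4.3.3 (quasi-likelihood, two-sided, Benjamini-Hochberg over 14965 genes, threshold 0.05). The standard error was the log2 fold change divided by the square root of F, taken as positive. Marker sums used library totals. Symbols matched 56321 IDs (93.1%). Positions and sequences came from GENCODE 29 on GRCh38 and RefSeq GRCh38.p14, matched by ID without version or by symbol, so the counting build is not settled. The test was checked on simulated counts.

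Alternatives were other scalings, filters, DESeq2 1.42.0, limma voom (3.58.1), a length and GC correction, a threshold of 0.01 and libraries left out. The host genes, lists and tests were chosen with earlier results of these data known. Named genes were the hosts, FTO, up to 2 members per direction of each list by size of change, genes overlapping or nearest to a host, and the 5 nearest profiles. Others named, including members that did not pass, were chosen after their values were seen.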

Additional observations from a re-analysis of the deposited data

How the results depend on the processing

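GAS5, SNHG6, SNHG8 and ZFAS1 were called lower under size factors of the DESeq2 type, library totals, TMM without ribosomal protein genes, no filter, a stricter filter, limma voom and each library left out. Over these settings 7.57% (no filter) to 19.5% (stricter filter) of all genes were called lower. Upper-quartile scaling and DESeq2 added SNHG1, with 19.5% and 16.6% of all genes called lower. At a threshold of 0.01, GAS5, SNHG6 and ZFAS1 passed, against 8.94% of all genes called lower. With the length and GC correction SNHG7 was 0.12 and ZBTB37 -0.20, opposite in sign to their reported values, and SNHG12 was -0.061 without control 1 and -0.012 without siFTO 4 and 5. Neither SNHG7, SNHG12 nor ZBTB37 passed the test, and the cause was not tested. FTO was -0.46 with library totals (adjusted p = 0.0576), -0.57 at the threshold of 0.01 (adjusted p = 0.0209) and between -0.74 and -0.47 with 1 library left out. Over all genes, 2913 were higher and 2684 lower. A threshold of 0.01 gave 1411 higher and 1338 lower, and leaving out siFTO 4 and 5 gave 970 and 926. Single libraries left out gave 1383 (control 1) to 3826 (siFTO 6) higher and 1589 (siFTO 4) to 2928 (siFTO 6) lower, with 1540 and 1597 without control 2, 1794 and 1759 without control 3, 1612 lower without control 1 and 1702 higher without siFTO 4. Library totals gave 4088 higher (27.3%) and 1787 lower (11.9%). No paired analysis was possible because the control replicates are numbered 1 to 3 and the siFTO replicates 4 to 6. Depth limits SNHG22, GAS5-AS1 and the snoRNAs, which had few reads.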

Other observations

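The 5 genes closest to GAS5 itself over the 6 libraries, by the same distance as for the mean profile, were RPL27A, OSER1-DT, SERPINB6, GOLGA2P5 and RPL7P1. This comparison was chosen after the data were seen. RPL27A, a ribosomal protein gene, had a root mean square distance of 0.0359 on the log2 scale and a log2 fold change of -0.83, against -0.82 for GAS5. RPL7P1 is a processed copy of a ribosomal protein gene, and reads may be shared between the copy and its parent.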
